A study of Mus musculus with 6 samples.

Results

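CXC and CX3C chemokines are small secreted or membrane-tethered proteins that direct leukocyte movement, and 10 of their genes (Cxcl1, Cxcl2, Cxcl5, Cxcl9, Cxcl10, Cxcl11, Cxcl12, Cxcl15, Cxcl16 and Cx3cl1) were followed here in mouse pancreatic carcinoma cells treated with decitabine. The members were taken by name: every array probe whose target name was one of the 10 was used, which gave 16 of 45281 probes and covered 9 of the 10 genes. Probes named CXCL1, CXCL9, CXCL11, CXCL15 and CX3CL1 occurred once each, CXCL2, CXCL10 and CXCL16 had 2 probes each, and CXCL12 had 5. No probe carried the name CXCL5, so Cxcl5 was not analysed here.

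The cells were malignant epithelial cells from a pancreatic ductal adenocarcinoma of a KPC-Brca1 mouse, grown for a short time as an explant culture. KPC mice are an engineered model of pancreatic cancer in which Cre recombinase switches on tumour-driving alleles in the pancreas; the labels name neither the Cre driver nor the Brca1 allele, the strain or the age. The 3 untreated plates and the 3 plates given 0.5 µM decitabine (5-aza-2'-deoxycytidine, DAC) for 48 hours share that origin in 1 tumour, so p-values measure the spread between plates, which may be technical. Decitabine is a cytidine analogue that is built into DNA, traps DNA methyltransferases and so lowers DNA methylation as cells divide. Total RNA of each plate was hybridised to 1 Illumina bead array.

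Chemokines with a glutamate-leucine-arginine motif before the first cysteine pair (Cxcl1, Cxcl2, Cxcl5 and Cxcl15 in mouse) attract neutrophils. Cxcl1, Cxcl2 and Cxcl5 do so largely through Cxcr2, and their genes are classic targets of NF-kB. Cxcl9, Cxcl10 and Cxcl11 lack that motif, are induced by interferons and draw T cells and NK cells through Cxcr3. Cxcl12 acts through Cxcr4 and the atypical receptor Ackr3, whereas Cxcl16 (receptor Cxcr6) and Cx3cl1 (receptor Cx3cr1) are made as transmembrane proteins that Adam10 and Adam17 can shed. Pancreatic tumours are known for neutrophil infiltration driven through Cxcr2 and for poor T cell entry, which is the setting in which these ligands are usually studied.

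In the RefSeq gene table (GRCm38.p6), 7 of the 10 genes lay on chromosome 5 in a pair of clusters, one holding Cxcl5, Cxcl15, Cxcl1 and Cxcl2 and the other Cxcl9, Cxcl10 and Cxcl11. Cxcl12 lay on chromosome 6, Cx3cl1 on chromosome 8 and Cxcl16 on chromosome 11. Cxcl11 is annotated there as a transcribed pseudogene. RefSeq promoters, taken as 250 bases before to 50 bases after the gene start, were in the table for 7 members, and those of Cxcl5, Cxcl11 and Cxcl16 were not used. The 5 promoters below belong to the 3 genes with the greatest rises described further on (Cxcl1, Cxcl2 and Cxcl10), to their cluster neighbour Cxcl15, which fell, and to Cxcl9, the weaker interferon-type responder. They were read 5' to 3' on the gene's own strand from chr5:90890995-90891294 (plus strand, Cxcl1), chr5:90903649-90903948 (plus, Cxcl2), chr5:90794284-90794583 (plus, Cxcl15), chr5:92348840-92349139 (minus, Cxcl10) and chr5:92328030-92328329 (minus, Cxcl9), all in GRCm38.p6. Capitals mark matches to an interferon-stimulated response element or an NF-kB motif.
Cxcl1: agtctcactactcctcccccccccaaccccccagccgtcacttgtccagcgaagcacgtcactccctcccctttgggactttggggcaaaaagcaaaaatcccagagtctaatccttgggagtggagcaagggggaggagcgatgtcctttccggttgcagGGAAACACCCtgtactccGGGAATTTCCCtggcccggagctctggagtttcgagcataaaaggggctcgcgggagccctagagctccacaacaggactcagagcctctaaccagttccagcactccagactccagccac
Cxcl2: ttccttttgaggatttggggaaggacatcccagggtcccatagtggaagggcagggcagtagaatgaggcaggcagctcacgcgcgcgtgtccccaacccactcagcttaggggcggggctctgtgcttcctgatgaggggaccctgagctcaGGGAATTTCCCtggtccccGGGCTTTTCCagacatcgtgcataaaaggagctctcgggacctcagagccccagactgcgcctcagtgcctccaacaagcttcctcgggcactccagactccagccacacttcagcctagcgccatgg
Cxcl15: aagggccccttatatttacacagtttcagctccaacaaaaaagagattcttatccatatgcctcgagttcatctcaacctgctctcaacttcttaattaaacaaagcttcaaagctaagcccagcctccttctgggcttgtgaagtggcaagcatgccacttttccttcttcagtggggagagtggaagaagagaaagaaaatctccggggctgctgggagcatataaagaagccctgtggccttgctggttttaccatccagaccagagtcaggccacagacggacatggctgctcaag
Cxcl10: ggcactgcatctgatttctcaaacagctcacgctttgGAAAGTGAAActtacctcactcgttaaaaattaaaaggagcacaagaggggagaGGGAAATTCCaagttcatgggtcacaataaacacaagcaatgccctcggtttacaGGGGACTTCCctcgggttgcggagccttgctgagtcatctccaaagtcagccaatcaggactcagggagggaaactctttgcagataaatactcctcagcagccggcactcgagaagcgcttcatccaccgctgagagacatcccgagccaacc
Cxcl9: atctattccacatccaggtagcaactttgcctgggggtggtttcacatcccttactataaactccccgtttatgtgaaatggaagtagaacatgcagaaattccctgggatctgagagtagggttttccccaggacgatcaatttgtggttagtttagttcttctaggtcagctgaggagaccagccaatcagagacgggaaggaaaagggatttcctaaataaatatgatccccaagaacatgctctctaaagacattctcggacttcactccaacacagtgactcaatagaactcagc

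Motifs were searched as letters on both strands: GAAANNGAAA for the interferon-stimulated response element, TTCNNNGAA for the gamma-activated site of interferon-gamma signalling, and GGGNNNTTCC for NF-kB. Of the 32851 RefSeq promoters of this length, 3.44% held the first, 8.30% the second and 5.56% the third. The Cxcl10 promoter held the first, as GAAAGTGAAA at 213 to 204 bases before the start. It also held 2 NF-kB matches, GGGAAATTCC at 159 to 150 bases and GGGGACTTCC at 104 to 95 bases before the start. Both Cxcl1 and Cxcl2 carried GGGAATTTCC, at 71 to 62 bases before the start in Cxcl1 and at 97 to 88 bases in Cxcl2, and each copy overlapped a match on the other strand that is shifted by 1 base. A further match lay at 89 to 80 bases before the start in Cxcl1 (GGAAACACCC, the other strand) and at 78 to 69 bases in Cxcl2 (GGGCTTTTCC). The Cxcl9, Cxcl12, Cxcl15 and Cx3cl1 windows held none of the 3 motifs as spelled here, and no member's window held TTCNNNGAA. Other spellings of these elements were not searched, so a window without a match may still hold one. These matches describe letters in a window of 300 bases and were not tested as binding sites.

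The number of CG dinucleotides, the sequence that DNA methyltransferases act on, also differed among the 7 promoters. Cxcl12 had 20 and Cx3cl1 had 19, more than 73.5% and 71.9% of all promoters respectively. Cxcl2 had 11, and Cxcl1 and Cxcl10 had 10 each, above the median of 7. Cxcl9 had 4 and Cxcl15 had 3, below that median. The observed over expected CG ratio was 0.64 in Cxcl12 and 0.62 in Cx3cl1, 0.53 in Cxcl10, 0.40 in both Cxcl1 and Cxcl2, 0.27 in Cxcl9 and 0.18 in Cxcl15, against a median of 0.38 over all promoters. DNA methylation itself was not measured in these samples.

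**Figure D1:**
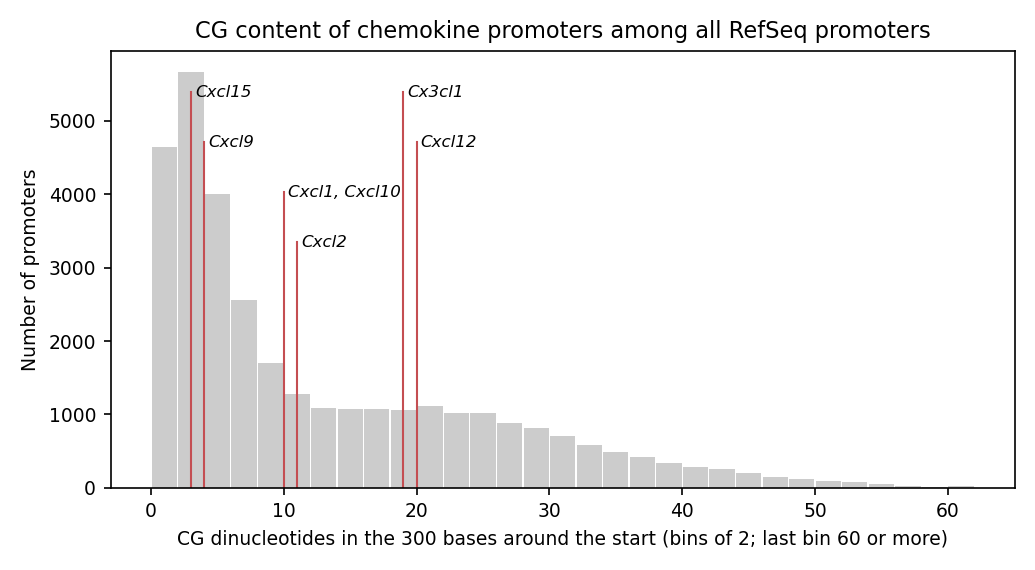
The plot shows how many RefSeq promoters (vertical axis) have a given number of CG dinucleotides in the 300 bases around the gene start (horizontal axis, bins of 2), with a red line at each chemokine promoter; the height of a line has no meaning. Cxcl15 (3) and Cxcl9 (4) sit among the CG-poor promoters, Cxcl1, Cxcl10 and Cxcl2 (10 to 11) above the median of 7, and Cx3cl1 and Cxcl12 (19 and 20) further up.

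The 6 arrays detected between 19890 and 21462 of 45281 probes, where detected means a deposited detection p-value under 0.05. Between 25 and 67 beads stood behind each chemokine value. After background correction and quantile normalization, the lowest signal among detected probes was 4.76 to 4.93 on the log2 scale, depending on the array. Untreated replicate 1 stood apart from the other untreated arrays: its normalized signals correlated at 0.982 and 0.981 with replicates 2 and 3, which correlated at 0.998 with each other, and its mean intensity of 460 was above the 313 to 361 of the other 5 arrays. Among the 8 chemokine genes tested, it was the highest untreated array for 5. Values below are normalized log2 signals unless intensities are named. A probe's signal depends on its own sequence, so signals of different probes are not set against each other.

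Decitabine was accompanied by higher signals of 5 of the 8 chemokine genes that could be tested (Cxcl1, Cxcl2, Cxcl9, Cxcl10 and Cxcl16) and by a lower signal of 1 (Cxcl15). Cxcl9 was detected on DAC arrays alone, so it entered these counts through the group in which it was high. Cxcl2 was detected on 1 untreated and 3 DAC arrays, so it too would not have entered without its DAC arrays. Cxcl12 and Cx3cl1 did not pass the test at the gene level. Cxcl11 was not detected on any array. A call is an adjusted p under 0.05 in the limma fit of all 14154 genes tested, in which 10.1% of genes were called higher and 7.21% lower. The median log2 fold change of the 8 genes was 0.85, or 0.65 with Cxcl9 at its lower bound, against -0.02 over all genes. In 5 of the 8 every DAC value lay above every untreated value, in 2 (Cxcl12 and Cxcl15) below, and in 1 (Cx3cl1) the groups overlapped. Over all genes those shares were 17.4% above and 18.7% below. At the probe level 13 of 16 chemokine probes passed the detection filter, of which 8 were called higher and 3 lower, beside 8.34% and 6.62% of the 21415 probes that passed. Among those called higher, the Cxcl9 probe and the weaker Cxcl2 probe passed the filter through DAC arrays alone. The stronger Cxcl2 probe would not have passed without its DAC arrays. Since these are bulk plates, a change in the share of cells that express a gene cannot be told apart from a change in RNA per cell.

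**Figure D2:**
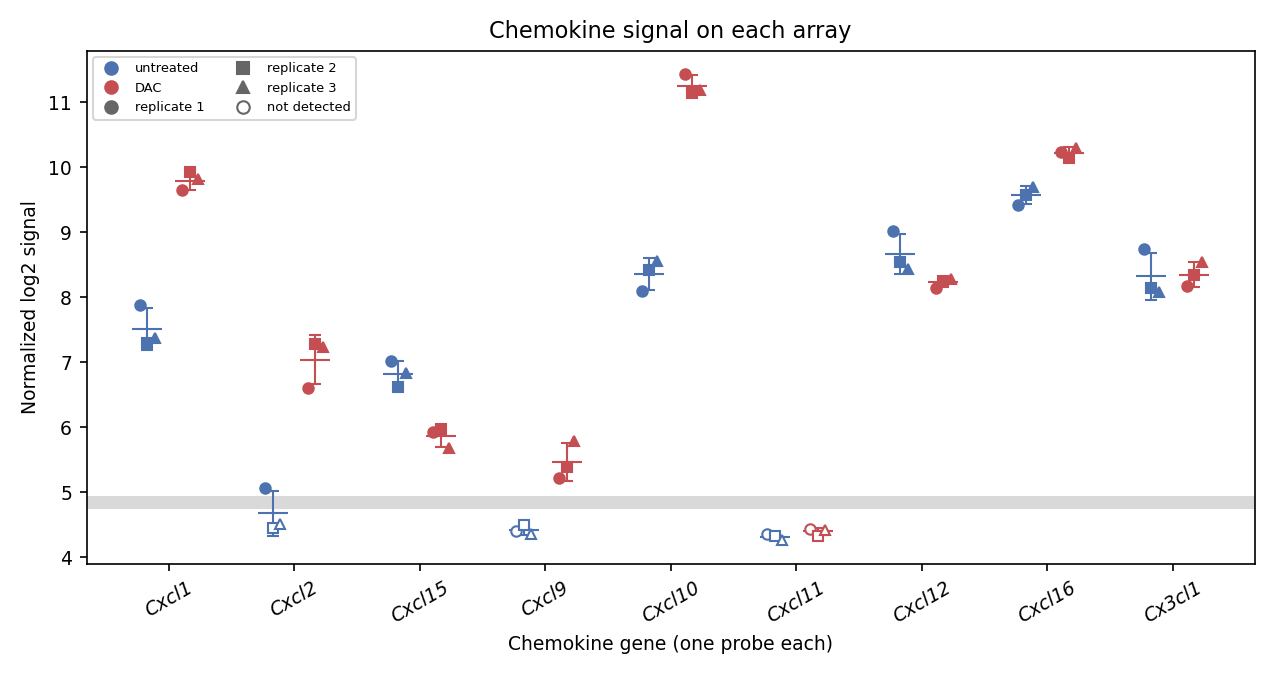
Each point is 1 array's normalized log2 signal (vertical axis) for 1 probe of each of 9 chemokine genes (horizontal axis), blue for untreated and red for DAC, with the marker shape giving the replicate and open markers for arrays where the probe was not detected; bars show the mean and SD of 3 arrays and the grey band the lowest detected signal of each array (4.76 to 4.93). Cxcl1, Cxcl2, Cxcl9, Cxcl10 and Cxcl16 are higher on every DAC array, Cxcl12 and Cxcl15 lower, Cx3cl1 overlaps and Cxcl11 stays below the band.

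Among the neutrophil-attracting ligands, Cxcl1 and Cxcl2 rose and Cxcl15 fell. The deposited intensities of Cxcl1 were 325, 182 and 197 on the untreated arrays and 840, 1007 and 767 on the DAC arrays, with bead standard errors of 6.30 to 14.8 and 36.4 to 39.4. The normalized log2 signals were 7.89, 7.29 and 7.37 untreated and 9.65, 9.93 and 9.82 with DAC. The groups were 1.76 log2 units apart at their nearest points, although untreated replicate 1 stood above the other untreated arrays. The rise was 4.86-fold, a log2 fold change of 2.28 ± 0.18 (SE, n = 3 against 3, adjusted p 8.64e-05 in limma). Rises of at least this size occurred in 93 of the 14154 genes (0.657%).

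Cxcl2, which like Cxcl1 acts on Cxcr2, was near the detection limit in untreated cells. Its stronger probe read 5.07, 4.45 and 4.51 untreated, of which the first alone was detected, and 6.61, 7.28 and 7.24 with DAC. That gave a log2 fold change of 2.37 ± 0.23 (n = 3 against 3, adjusted p 0.000323 in limma). With an offset of 50 in place of 16 after background correction, the value was 1.48 (adjusted p 0.000571), since a larger offset compresses low signals. The other Cxcl2 probe, at 4.43, 4.52 and 4.57, was not detected on any untreated array and was detected on all 3 DAC arrays at 6.21, 6.20 and 6.00. Measured against the lowest detectable signal of each untreated array, it was at least 2.49-fold higher. The fitted log2 fold change of this probe was 1.63 (adjusted p 0.000101 over probes, limma). Both probes therefore moved the same way.

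Cxcl15, known as lungkine for its expression in lung epithelium, was detected on all 6 arrays and went the other way. It read 7.02, 6.62 and 6.84 untreated and 5.93, 5.97 and 5.68 with DAC. The lowest untreated array was 0.65 log2 units above the highest DAC array. The signal fell by 0.97 ± 0.14 on the log2 scale (n = 3 against 3, adjusted p 0.00306 in limma), that is, it was 1.96-fold lower. Falls of at least this size occurred in 73 genes (0.516%). Cxcl15 lies in the same cluster as Cxcl1 and Cxcl2, so neighbours in 1 cluster moved in opposite directions.

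Of the Cxcr3 ligands, Cxcl10 and Cxcl9 rose. Cxcl10 had deposited intensities of 374, 350 and 397 untreated and 2740, 2317 and 2007 with DAC, with bead standard errors of 11.1 to 16.6 and 65.8 to 101. Normalized, these were 8.09, 8.42 and 8.56 against 11.44, 11.14 and 11.20, so that the groups were 2.58 log2 units apart at their nearest points. The change was 7.45-fold, a log2 fold change of 2.90 ± 0.15 (n = 3 against 3, adjusted p 1.24e-05 in limma), and 47 genes (0.332%) rose by at least as much. The second Cxcl10 probe read 6.20, 5.50 and 5.70 untreated and 8.82, 9.30 and 9.15 with DAC. It showed a log2 fold change of 3.29 ± 0.20 (adjusted p 4.97e-05 over probes, limma). Untreated replicate 1 was the lowest untreated array on the first probe and the highest on the second.

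Cxcl9 was not detected on any untreated array, at 4.40, 4.49 and 4.35, and was detected on all 3 DAC arrays, at 5.22, 5.39 and 5.78. Detection on no untreated array and on every DAC array occurred for 1.97% of the genes tested. Against the lowest detectable signal the rise was at least 1.56-fold, a bound that was not itself tested. The fitted log2 fold change was 1.05 ± 0.16 (adjusted p 0.00315 in limma), or 0.50 with the offset of 50 (adjusted p 0.0131). This fitted value depends on how signals near background are treated.

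Cxcl11 was not detected on any array: its probe stayed between 4.26 and 4.44. A further probe under the older name SCYB11, which RefSeq lists as a synonym, read 4.36, 4.31 and 4.48 untreated and 4.65, 4.75 and 4.43 with DAC, with detection p-values of 0.0545 or more. The design therefore gives no fold for Cxcl11.

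Cxcl12 differed among its own probes. Its strongest probe, which stood for the gene in the fit, read 9.02, 8.55 and 8.44 untreated and 8.15, 8.26 and 8.28 with DAC, a log2 difference of -0.44 ± 0.16 (n = 3 against 3, adjusted p 0.103 in limma, 95% interval -0.81 to -0.07). Here untreated replicate 1 stood above the rest, and without it the difference was -0.26 (adjusted p 0.0975). A second probe read 6.66, 6.61 and 6.91 untreated and 5.87, 5.54 and 5.96 with DAC. It fell by 0.93 ± 0.15 on the log2 scale (adjusted p 0.00647 over probes, limma). Another, at 6.27, 6.24 and 6.44 untreated and 5.63, 5.66 and 5.38 with DAC, fell by 0.76 ± 0.13 (adjusted p 0.00769 over probes). On both, untreated replicate 1 lay between the other untreated arrays. With replicate number as a block in the fit, the probe that fell by 0.76 was not called (adjusted p 0.0750 over probes, limma). The remaining 2 probes were not detected on any array. Taking the mean of the detected probes in place of the strongest, Cxcl12 fell by 0.71 (adjusted p 0.00271 in limma), so the call rests on the choice of probe. Where these probes lie on the transcripts was not examined.

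**Figure D3:**
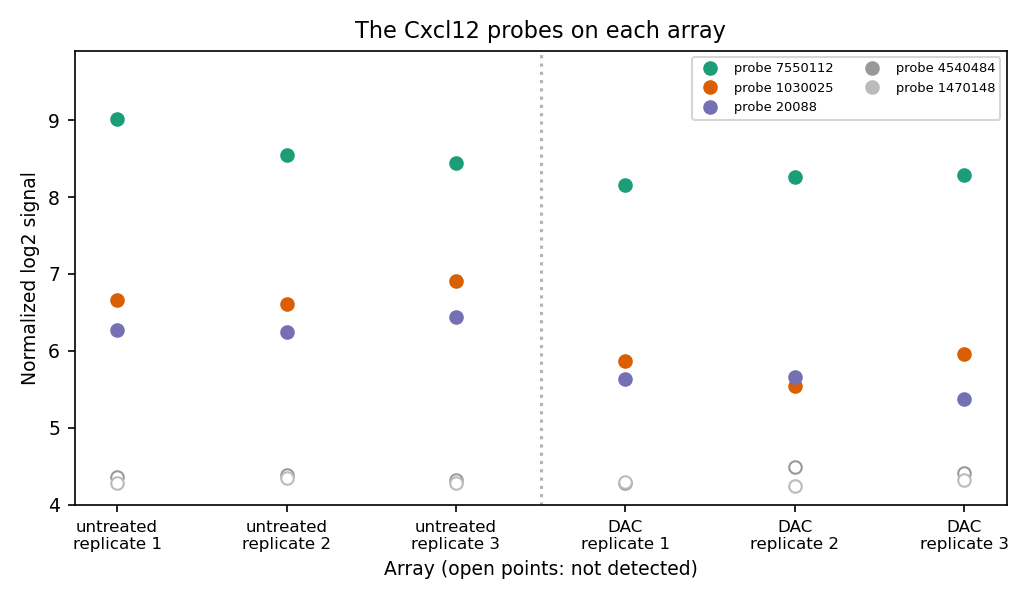
Normalized log2 signals (vertical axis) of the 5 Cxcl12 probes are shown on each of the 6 arrays (horizontal axis), untreated left of the dotted line and DAC right of it, with open points where the probe was not detected. The 3 detected probes are lower on every DAC array than on any untreated array, by 0.16 to 0.65 log2 units at the nearest points.

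The transmembrane chemokines gave a small rise in one case and no call in the other. Cxcl16 read 9.43, 9.58 and 9.71 untreated and 10.24, 10.14 and 10.31 with DAC, and the groups were 0.44 log2 units apart. The log2 fold change was 0.66 ± 0.12 (n = 3 against 3, adjusted p 0.00777 in limma), a 1.58-fold rise. With median scaling in place of quantile normalization it was 0.52 (adjusted p 0.0533), no longer under the threshold. Median scaling also moved the median of all genes from -0.02 to -0.12, so relative to that median the change was similar. With the replicate block the gene's adjusted p was 0.0589 in limma. In the fit over probes this probe's adjusted p was 0.0110, and 0.0534 without untreated replicate 2. Its other probe read 6.53, 5.81 and 5.93 untreated and 6.97, 7.12 and 7.43 with DAC, a log2 fold change of 1.08 ± 0.21 (adjusted p 0.0130 over probes, limma). That call did not survive the omission of untreated replicate 2 or 3 or of the same-numbered DAC arrays, with values of 0.95 to 1.11 and adjusted p from 0.0520 to 0.0582.

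Cx3cl1 was detected on all 6 arrays and its groups overlapped. It read 8.74, 8.14 and 8.08 untreated and 8.17, 8.34 and 8.55 with DAC, where untreated replicate 1 was the highest of the 6. The log2 difference was 0.03 ± 0.19 (n = 3 against 3, adjusted p 0.940 in limma), or -0.12 with median scaling (adjusted p 0.784). Its 95% interval of -0.41 to 0.47 leaves room for a change of up to about that size in either direction. Another probe that RefSeq synonyms assign to Cx3cl1 was not detected on any array, with detection p-values of 0.0716 or more.

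**Figure D4:**
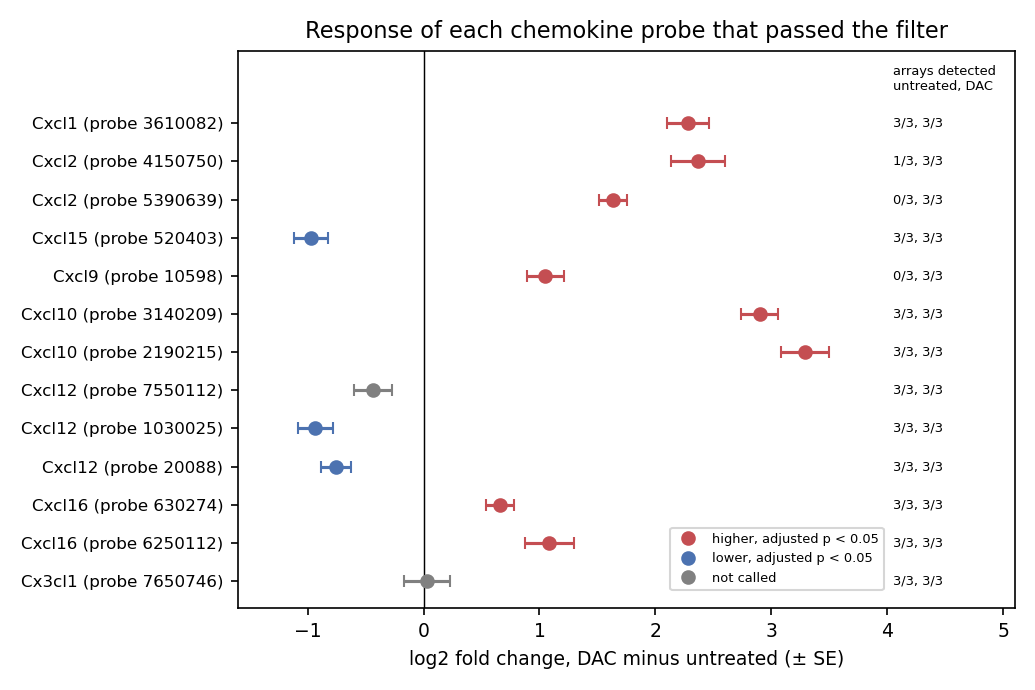
Points give the log2 fold change, DAC minus untreated (horizontal axis), with its SE, of the 13 chemokine probes that passed the filter (vertical axis), red for called higher, blue for called lower and grey for not called over all probes; the figures on the right count the arrays on which the probe was detected, of 3 untreated and of 3 DAC. The probes of Cxcl10 (2.90 and 3.29), Cxcl2 and Cxcl16 are on one side each, and 2 of the 3 Cxcl12 probes are called lower while the strongest is not.

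The receptors of these ligands were mostly not measured above background. Of 9 listed receptors, Cxcr2, Cxcr3, Cxcr4, Cxcr5, Cxcr6, Ackr1 and Cx3cr1 were not detected on any array and Cxcr1 had no matched probe name. Ackr3, which scavenges Cxcl12, was detected on 1 untreated and 2 DAC arrays, at 5.00, 4.77 and 4.65 against 4.68, 4.92 and 5.08. Its log2 difference was 0.09 ± 0.15 (adjusted p 0.716 in limma). The chemokine signals thus came from cultures in which no measured receptor but Ackr3 was detected.

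Of 6 other CXC ligand genes, 3 could be tested and 1 was called higher, beside 10.1% of all genes tested. With 3 tested, the count is no result about these ligands. Pf4, the platelet chemokine gene that lies between Cxcl5 and Cxcl15, was not detected untreated, at 4.24, 4.41 and 4.34, and was detected on all DAC arrays, at 4.78, 5.34 and 5.61. It was at least 1.34-fold higher, and its fitted log2 fold change was 0.91 (adjusted p 0.0172 in limma). Omitting untreated replicate 3 or either of DAC replicates 2 and 3 took the call away, with fitted values of 0.73 to 0.92 and adjusted p from 0.0508 to 0.0806, and so did testing without a filter on dim probes (adjusted p 0.0530). Ppbp, a platelet ligand of Cxcr2, was likewise detected on DAC arrays alone, at least 1.16-fold higher, but was not called (adjusted p 0.103). With the mean of all its probes it was called (adjusted p 0.0444). Cxcl17, a mucosal chemokine, gave 0.25 ± 0.12 (adjusted p 0.203). Cxcl3, Cxcl13 and Cxcl14 were not detected on any array. The list's count of higher calls was 0 with a detection p under 0.01 or with detection required on all 6 arrays.

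Genes around the cluster from Cxcl5 to Cxcl2 were called in both directions. Counting the genes between the members and 5 protein-coding genes on each side, 8 of 13 around Cxcl5 to Cxcl2 were tested, and 2 were called higher and 1 lower, with a median of 0.38, or 0.27 with genes undetected in untreated cells at their bounds. Over all genes tested the shares were 10.1% higher and 7.21% lower, and with 8 neighbours tested the counts are no result about the neighbours. Mthfd2l, a mitochondrial folate enzyme gene directly after Cxcl2, read 6.35, 6.66 and 6.56 untreated and 5.71, 5.39 and 5.37 with DAC, and fell by 1.03 ± 0.14 on the log2 scale (adjusted p 0.00214 in limma). Pf4 and Areg, the amphiregulin gene (0.71 ± 0.19, adjusted p 0.0359), were called higher. Areg was not called with median scaling (0.56, adjusted p 0.162), without a filter on dim probes (adjusted p 0.0861) or with untreated replicates 2 and 3 averaged (0.62). With the replicate block its adjusted p was 0.139 in limma. Afp, the alpha-fetoprotein gene, gave 0.99 ± 0.29 (adjusted p 0.0504), and was called with median scaling (0.89, adjusted p 0.0406), cyclic loess (adjusted p 0.0385), no background correction (adjusted p 0.0492) and a trend in the variance (adjusted p 0.0432). Leaving out untreated replicate 1 gave 4 genes called higher, untreated replicate 2 gave 1, and omitting untreated replicate 3 or either of DAC replicates 2 and 3 gave 0.

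Around Cxcl9 to Cxcl11, 6 of 10 neighbours were tested, 1 was called higher and 0 lower, and the median was 0.15. Over all genes tested 10.1% were called higher and 7.21% lower, so with 6 tested these counts too are no result about the neighbours. Scarb2, a lysosomal membrane protein gene, gave 0.74 ± 0.14 (adjusted p 0.00985 in limma), a call lost without DAC replicate 2 (0.65, adjusted p 0.0517), with median scaling (0.59, adjusted p 0.0662) and with the mean of all probes (0.54, adjusted p 0.0879). The replicate block also took it away (adjusted p 0.0706 in limma). Stbd1 (0.30, adjusted p 0.110), Uso1 (0.14, adjusted p 0.403) and Sdad1 (0.15, adjusted p 0.488) were not called. The neighbours' log2 differences were thus smaller than the 2.90 of Cxcl10 between them.

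Signalling genes that lead from interferon receptors to chemokine promoters rose in part: 4 of 11 measured were called higher and 1 lower, with a median of 0.26. Over all genes tested, 10.1% were called higher and 7.21% lower, with a median of -0.02. Irf7, an interferon regulatory factor, read 6.12, 5.90 and 6.16 untreated and 9.69, 9.42 and 9.52 with DAC (3.48 ± 0.13, adjusted p 1.73e-06 in limma). Irf9 (1.02 ± 0.11) and Stat2 (1.12 ± 0.15), which act together on interferon-stimulated response elements, also rose (adjusted p 0.000707 and 0.00189). Irf1 rose by 0.95 ± 0.13 (adjusted p 0.00238). Jak2, a receptor kinase, fell by 0.41 ± 0.12 (adjusted p 0.0428), a call lost without any 1 of the arrays other than untreated replicate 1, at adjusted p from 0.0748 to 0.166. It was not called with median scaling (adjusted p 0.0510), cyclic loess (adjusted p 0.0531) or untreated replicates 2 and 3 averaged (adjusted p 0.157) either. With the replicate block its adjusted p was 0.193 in limma. The count called lower was 2 without untreated replicate 1. Ifnar1 was not detected on any array.

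In the NF-kB and inflammatory list, 8 of 17 measured genes were called higher and 1 lower, beside 10.1% and 7.21% of all genes tested. The list median was 0.36 (0.35 with Tnf at its bound). The inhibitors Nfkbie (0.83 ± 0.13, adjusted p 0.00399 in limma) and Nfkbia (0.72 ± 0.13, adjusted p 0.00728) and the deubiquitinating feedback gene Tnfaip3 (0.67 ± 0.13, adjusted p 0.00903) rose. Tnf, not detected untreated and detected on all 3 DAC arrays, was at least 1.20-fold higher. Its fitted log2 fold change was 0.70 (adjusted p 0.00591 in limma). Also called higher in limma were Nfkb2 (0.94, adjusted p 0.0292), Myd88 (0.62, adjusted p 0.0203), Il6 (0.66, adjusted p 0.0317) and Rela (0.40, adjusted p 0.0301). Ikbkg, the regulatory subunit of the IkB kinase, gave -0.42 (adjusted p 0.0446). With median scaling Tnfaip3 gave 0.52 and was not called (adjusted p 0.0935), and 4 genes of the list were called higher and 0 lower. Ikbkg was not called with cyclic loess (adjusted p 0.0554), the mean of all probes (-0.0762, adjusted p 0.723) or untreated replicates 2 and 3 averaged (adjusted p 0.111). With the replicate block, Nfkbia, Tnfaip3 and Ikbkg were not called (adjusted p 0.0640, 0.0736 and 0.166 in limma). That block left 2 genes of the list called higher and 0 lower. On omission of replicate 2 or 3 of either group, 4 were called higher. The count called lower was 3 without untreated replicate 1 and 0 without any of the others. Il1a and Il1b were not detected on any array.

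Genes acting on chemokine proteins and messages were counted beside the 10.1% called higher and 7.21% called lower over all genes tested. With lists this short, the counts are no result about them. Of 7 measured shedding and trimming enzymes and their regulators, 0 were called in either direction, with a median of -0.09: Adam17 gave -0.09 ± 0.16 (adjusted p 0.732 in limma) and Adam10 -0.14 ± 0.31 (adjusted p 0.797). Mmp2, Mmp9 and Rhbdf1, a regulator of Adam17, gave -0.17, -0.10 and -0.09 (adjusted p 0.659, 0.716 and 0.664). Timp3, an inhibitor of Adam17, gave 0.21 (adjusted p 0.261), and Dpp4, the peptidase that trims Cxcl10 and Cxcl12, was not detected on any array. Among 6 genes whose products promote or oppose the decay of chemokine messages, 1 was called, with a list median of 0.03. Zc3h12a, which encodes the ribonuclease Regnase-1, read 6.84, 6.10 and 5.88 untreated and 6.96, 7.23 and 7.18 with DAC (0.85 ± 0.23, adjusted p 0.0413). It was not called without any 1 of the arrays other than untreated replicate 1, with values of 0.65 to 0.93 and adjusted p from 0.0664 to 0.145. Nor was it called with median scaling (0.70, adjusted p 0.0754), the mean of all probes (0.43, adjusted p 0.0570), no filter on dim probes (adjusted p 0.113) or untreated replicates 2 and 3 averaged (adjusted p 0.124). With the replicate block its adjusted p was 0.114 in limma. Zfp36, which encodes tristetraprolin, gave 0.31 (adjusted p 0.101), Zfp36l1 -0.27 (adjusted p 0.117) and Elavl1 0.20 (adjusted p 0.262). Zfp36l1 was called lower without a filter on dim probes (adjusted p 0.0314) and with a trend in the variance (adjusted p 0.0265).

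**Figure D5:**
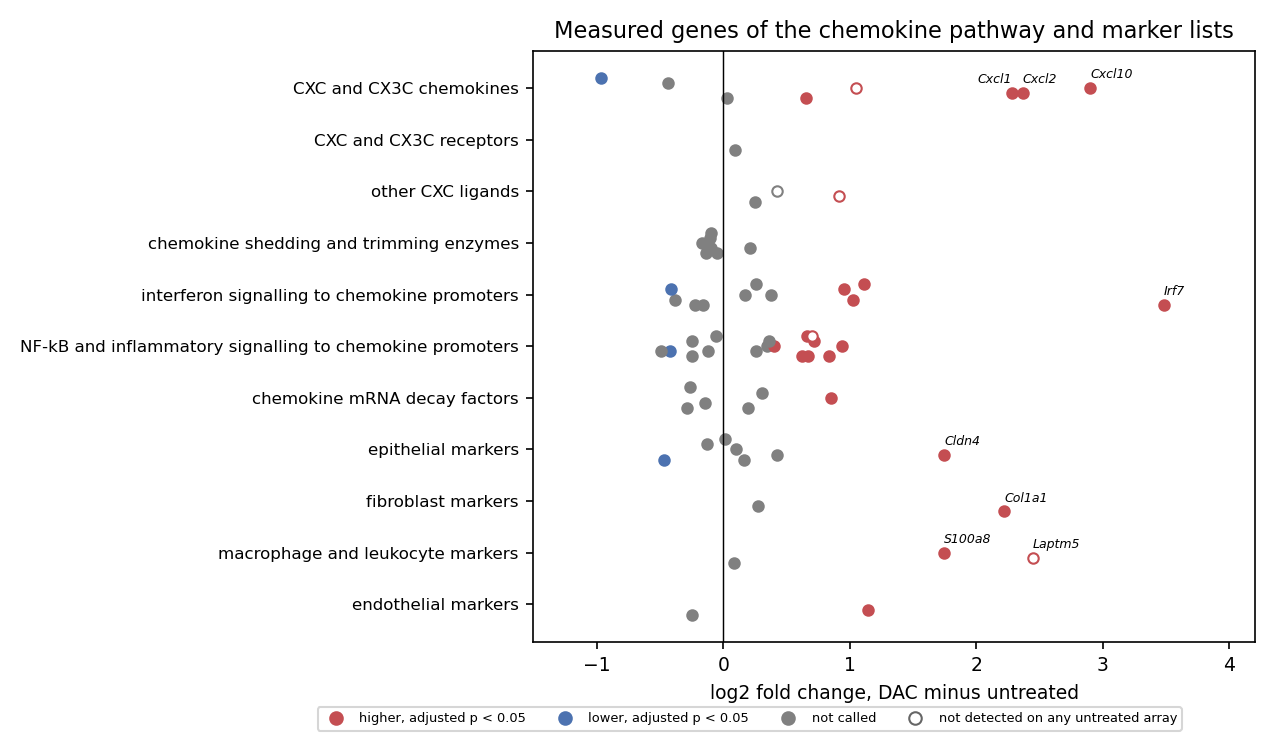
Each point is 1 measured gene's log2 fold change, DAC minus untreated (horizontal axis), grouped by list (vertical axis), red for called higher, blue for called lower and grey for not called; open points were not detected on any untreated array and their fitted value is not a bound, and vertical scatter within a list has no meaning. Cxcl10, Cxcl1 and Cxcl2 (2.28 to 2.90) lie below Irf7 (3.48), while the shedding enzymes lie around 0.

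Markers were read beside these results to check the labelled cell type. Of 8 epithelial markers, 7 were detected, among them Cdh1 (0.16 with DAC), Krt8 (0.42), Krt18 (-0.13) and Krt19 (0.01), none of which was called. Krt8 was called higher without background correction (adjusted p 0.0463), with an offset of 50 (adjusted p 0.0468) and with a trend in the variance (adjusted p 0.0263). Cldn4 rose by 1.75 ± 0.12 (adjusted p 4.45e-05 in limma) and Krt7 gave -0.47 (adjusted p 0.0448), a call lost on omission of replicate 2 or 3 of either group (adjusted p from 0.150 to 0.158), with cyclic loess (adjusted p 0.0513), without a filter on dim probes (adjusted p 0.0590) and with untreated replicates 2 and 3 averaged (adjusted p 0.152). The Krt7 call was also lost with the replicate block (adjusted p 0.184 in limma). The Epcam probe was not detected on any array.

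Markers of other cell types that also make chemokines were mostly not detected. In the leukocyte list, Ptprc, Adgre1, Itgam, Lyz2, Cd3e, Tyrobp and Fcer1g were not detected on any array. Laptm5 (at least 3.93-fold) and S100a8 (1.74 ± 0.13, adjusted p 7.18e-05 in limma) were higher with DAC, Cd68 gave 0.09 (adjusted p 0.687), and Csf1r was seen on 1 DAC array. The summed signal of the 3 leukocyte genes that could be tested (Laptm5, S100a8 and Cd68) was 256 to 289 untreated and 411 to 526 with DAC. In the fibroblast list, Pdgfrb, Col1a2, Col3a1, Dcn, Lum and Thy1 were not detected on any array. Col1a1 rose by 2.22 ± 0.24 (adjusted p 0.000686 in limma). The summed signal of Col1a1 and Pdgfra, the 2 of 9 genes that could be tested, was 217 to 308 untreated and 873 to 1375 with DAC. Pdgfra gave 0.27, or 0.50 without untreated replicate 1, where it was called (adjusted p 0.0291), and Fap was seen on 2 DAC arrays. Of 7 endothelial genes, Pecam1, Cdh5, Kdr, Tek and Emcn were not detected on any array. Esam rose by 1.14 ± 0.14 (adjusted p 0.00109 in limma) and Eng gave -0.25 ± 0.17 (adjusted p 0.367). The summed signal of Esam and Eng, the 2 that could be tested, was 83.6 to 99.0 untreated and 114 to 130 with DAC. The part of the few markers that rose in the chemokine signals was not tested.

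For the 3 members with the lowest adjusted p, the genes with the most alike 6-array profiles were taken as those with the smallest root mean square difference between profiles centred on their own means. For Cxcl10 these were Dhx58 (0.168 log2 units), Oas1g (0.169) and Serpinb9g (0.212), with log2 fold changes of 2.92, 3.07 and 2.79. For Cxcl1 they were Psmb9 (0.0774), Bgn (0.102) and Acta2 (0.129), with 2.36, 2.32 and 2.23. For Cxcl2 they were Ifi47 (0.126), Csf2 (0.134) and Hkdc1 (0.144), with 2.49, 2.62 and 2.52. Since the 6 arrays form 2 groups, likeness here mostly reflects a similar difference between them, and the arrays share their scan and normalization.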

How the data were processed

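Bead-array measurements of 6 plates, 3 untreated and 3 with DAC, were used. The deposited table holds, per the file headers, quantities for each probe and array, namely a mean bead intensity, its standard error over beads, a bead number and a p-value of detection; it was neither background-subtracted nor scaled between arrays by the authors as far as its values show. Total RNA was extracted with Trizol and labelled as biotinylated cRNA, per the labels' protocols; neither the scanner software nor the basis of the detection p-values is stated. The series' separate table of processed values was not used here, because no source links its identifiers to genes.

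Intensities were background-corrected and quantile-normalized with neqc (limma 3.58.1 in R 4.3.3, offset 16, negative controls inferred from detection p-values) and put on the log2 scale. Probes with detection p under 0.05 on at least 3 of 6 arrays were kept (21415), and the one with the highest mean stood for its gene. Groups were compared with lmFit and eBayes over 14154 genes, or over all kept probes, with Benjamini-Hochberg adjustment. The scripts were tested on simulated data. Of 30854 array names, 16223 matched a RefSeq symbol and 5684 a synonym. A bound ("at least") sets the DAC mean against, per untreated array, the higher of the probe's own signal and the lowest detected signal. Adjusted p-values belong to the fitted changes, and no bound was tested. Kept probes that were detected on no untreated array passed the filter through their DAC arrays alone. The precision of a mean rests on 3 arrays a group. No array date or slide was given, so no batch could be examined.

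The members and lists were chosen with earlier results of these data known, and some listed genes are not reported here and are left out of their lists' counts. The text names all members, up to 4 genes of lowest adjusted p per list and among neighbours, fixed defining markers, undetected defining markers and the 3 most alike genes of 3 members. Jak2, Ikbkg, Nfkb2, Myd88, Il6, Rela, Pdgfra, Adam10, Adam17, Csf1r, Fap and undetected list genes were further named after their values were seen. Alternatives were another background step or offset, other normalizations, filters, probe rules, a replicate block, a trend and leaving out each array.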

Additional observations from a re-analysis of the deposited data

How the results depend on the processing

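Of the 8 tested chemokine genes, Cxcl1 (2.09 to 2.47), Cxcl2 (1.48 to 2.58), Cxcl9 (0.50 to 1.18), Cxcl10 (2.76 to 3.09) and Cxcl15 (-1.07 to -0.68) kept direction and call under each of the 17 alternatives (16 for Cxcl2 and Cxcl9). The number called higher was 3 when detection on all 6 arrays was required, because Cxcl2 and Cxcl9 are then not tested. It was 4 with median scaling and with the replicate block, where Cxcl16 was lost. The number called lower was 2 with the mean of all probes, which added Cxcl12. The count over all genes, 2450, was 1320 with untreated replicates 2 and 3 averaged into 1 sample and ranged from 1232 (without DAC replicate 2) to 4694 (without untreated replicate 1) when 1 array was left out. The replicate block gave 874 calls. Deviations of same-numbered plates from their group means correlated at -0.61, -0.11 and -0.48, which gave no sign of pairing by number. Untreated replicates 2 and 3 correlated alike with each DAC array (0.52 and 0.56 with DAC replicate 1). These values therefore cannot decide whether plates were handled in pairs. Higher calls made up 58.3% of all calls, 48.4% with median scaling, 67.3% with cyclic loess, 79.7% with the block, and 65.2% to 72.2% without untreated replicate 2 or 3 or any DAC array.

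Direction turned in genes that were not called. Cx3cl1, by gene and by probe, was -0.12 with median scaling, -0.0754 with untreated replicates 2 and 3 averaged, and between -0.0913 and 0.24 when 1 array was left out. With median scaling Cd68 was -0.0418, Krt19 -0.10 and Sdad1 -0.0021. Leaving out 1 array took Krt19 to between -0.10 and 0.0703, Mmp2 to between -0.37 and 0.0827 and Mmp9 to between -0.22 and 0.0222. The causes were not tested. Signal near background limits Cxcl2, Cxcl9, Pf4, Ppbp and Tnf, whose untreated levels are bounds or close to them.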
